A study of Mus musculus with 4 samples.

Results

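NanoString hybridization, a probe count of chosen RNA molecules made without sequencing, was read on 30 genes in cultures of immortalized mouse embryonic fibroblasts carrying Myc, MycN, Minimal Myc or an empty vector. The genes are the 32 entries that the deposited table marks as NanoString in place of a transcription start, out of 26608 entries for 23366 genes. Ldha and Rpl19 are each entered under 2 transcript identifiers with the same values and were counted once. The other 26576 entries hold RNA-seq levels of the same 4 cultures in FPKM, fragments scaled to transcript length and library total, and all 30 genes have such a level. Every culture, vector included, received an adenovirus carrying Cre recombinase, which cuts DNA between its recognition sites, and was harvested after a recovery given as 48 without a unit. According to the design text, Myc was deleted in the cells that got the empty vector. The labels do not say from which Myc gene Minimal Myc was made or what it lacks, and do not name a clone, an allele or an animal age. Per the labels, polyadenylated RNA was sequenced and spike-in RNA was added by cell number; spike-in levels are not used here. There was 1 sample per culture, so no difference below has a replicate check, no test was run and no p-value is given. Whether and how the NanoString signal was normalized and how much RNA or how many cells went into it are not given in the sources used here. Nor is it given whether it was read on the sequenced RNA.

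Myc and MycN are transcription factors that pair with Max and bind DNA at E-box sequences, and Minimal Myc is the label's name for the third protein. In fibroblasts Myc is best known for driving genes of ribosome production, nucleotide supply, metabolism and entry into the cell cycle. Panels of this kind usually set such genes beside housekeeping genes, which are often taken as steady between samples. In bulk cultures, fewer cells of a type and less RNA per cell cannot be told apart.

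The added genes were looked at before the panel. Neither is on the NanoString panel. By FPKM, Myc stood at 141 in the Myc culture, 4.36 in MycN, 32.6 in Minimal Myc and 22.2 in vector, and Mycn at 0.275 in Myc, 178 in MycN, 95.9 in Minimal Myc and 0.390 in vector. The Myc level in vector was therefore not 0, and it was above that in the MycN culture. The labels do not state the deleted part of Myc, so this level does not check the deletion. Of 16 fibroblast markers, 15 were at 1 FPKM or more in each culture, and their summed level was 4316 FPKM in Myc, 3173 in MycN, 4128 in Minimal Myc and 3265 in vector. Of 11 epithelial markers 1 reached 1 FPKM in each culture, with sums of 11.3 FPKM in Myc, 5.17 in MycN, 1.83 in Minimal Myc and 13.7 in vector, and Epcam was at 0 to 0.00605 FPKM. Of 6 adipocyte markers 1 reached it in each, with sums of 9.87 FPKM in Myc, 53.3 in MycN, 9.87 in Minimal Myc and 7.79 in vector. Of 8 neural markers 3 reached it in each, with sums of 22.8 FPKM in Myc to 35.5 in vector. For 8 skeletal muscle markers the number was 1 to 3, with sums of 15.8 to 20.8 FPKM. For 8 endothelial markers it was 0 to 2, with sums of 2.66 to 6.92 FPKM. The part of such cells in the panel's values was not tested.

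The 30 genes covered a wide range of level. Their NanoString signal ran from 61.2 to 204396 in Myc, with a median of 5232, from 35.6 to 125090 in MycN (median 3705), from 46.1 to 156399 in Minimal Myc (median 4397) and from 26.9 to 126927 in vector (median 3167). By FPKM, 26 of the 30 lay above the median of the 11640 genes that averaged 1 FPKM or more, in each culture, so the panel is made mostly of abundant transcripts. The 4 genes with a signal below 200 in every culture were Il2rg, Hpx, E2f2 and Eif4e. Il2rg and Hpx averaged under 1 FPKM, which left 28 panel genes among those 11640.

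Signal and FPKM ordered the genes alike within a culture, with a Spearman correlation over 30 genes of 0.860 in Myc, 0.868 in MycN, 0.875 in Minimal Myc and 0.892 in vector. The points of a culture share its samples and its normalization. A few genes stood below the rest in every culture. Eif4e, which encodes the protein that binds the messenger RNA cap, had 2.25 signal units per FPKM in Myc, 2.40 in MycN, 1.66 in Minimal Myc and 2.40 in vector. The median gene had 64.3 in Myc, 46.9 in MycN, 49.3 in Minimal Myc and 61.2 in vector. Rpl27a and Ncl were also low, at 3.45 to 5.01 and 7.13 to 13.3 units per FPKM. Clathrin heavy chain, Cltc, was high at 342 in Myc, 182 in MycN, 207 in Minimal Myc and 211 in vector. In vector Il2rg was above it, at 284. The signal of a gene depends on its probe, so it is compared below only between cultures and not between genes.

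**Figure D1:**
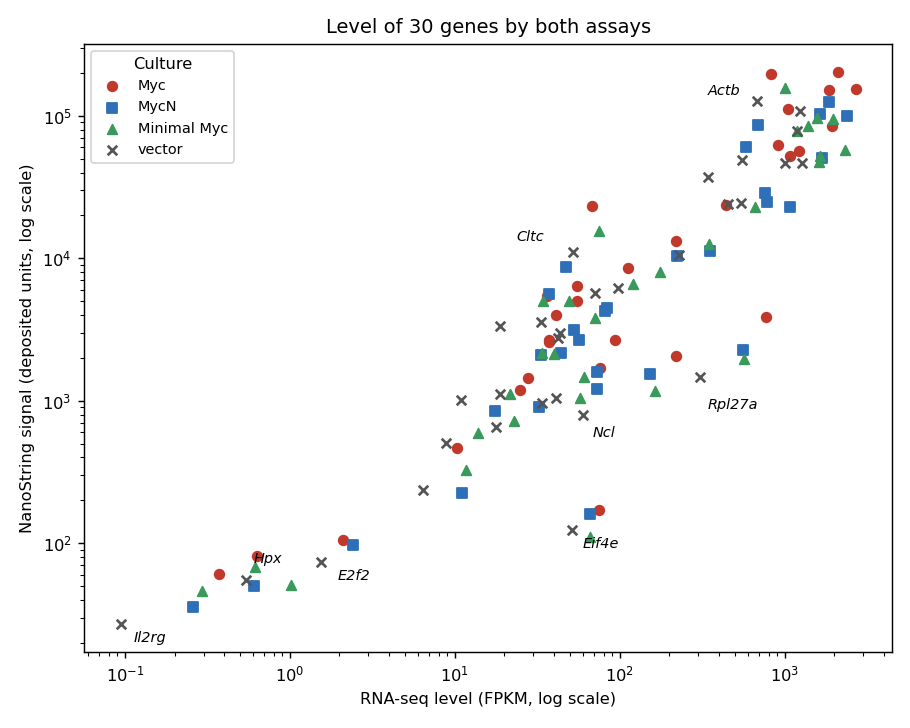
Each point is 1 of 30 genes in 1 of 4 cultures, with its RNA-seq level in FPKM on the horizontal axis and its NanoString signal on the vertical axis, both on log scales. Eif4e, with 51.5 to 75.5 FPKM and a signal of 110.4 to 169.9, lies far below the other genes of like FPKM, and Rpl27a and Ncl lie below them too.

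By NanoString the Myc culture was the highest of the 4 for 29 of 30 genes. All 30 genes (100%) were higher in Myc than in vector, at 1.33 to 3.08 times the vector signal with a median ratio of 2.04, and 15 (50%) were at least 2-fold higher. The 15 include Il2rg, with a signal of only 61.2 in Myc and 26.9 in vector. With 100 added to the signal the count was 14. Divided by the mean of 12 housekeeping genes on the panel, 0 genes were 2-fold higher in Myc and the median log2 ratio was 0.063, against 1.03 undivided. Those 12 are among the 30 genes counted, and their mean was itself 1.96 times vector in Myc. The divided values are thus partly set by construction. In the MycN culture 21 of 30 genes (70%) were above vector, with a median ratio of 1.28. There 2 genes (6.67%) were at least 2-fold higher, Ptma and Cdca7, and 1 (3.33%) at least 2-fold lower, B2m. In Minimal Myc 25 of 30 (83.3%) were above vector, with a median ratio of 1.23, and 2 genes (6.67%), Rpl10 and Npm1, were at least 2-fold higher. That division left 2 genes in MycN and 0 in Minimal Myc, where the median log2 ratio was -0.018. The genes nearest to the 2-fold line in Myc were Cltc at 2.12 times vector inside it and Rplp0 at 1.97 outside it.

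By median ratio, MycN and Minimal Myc lay closer to Myc and further from vector by FPKM than by NanoString. Between Minimal Myc and MycN the assays gave like medians, with log2 ratios of -0.10 by NanoString and -0.07 by FPKM. Myc held the highest level for 16 genes, MycN for 7 and Minimal Myc for 7, and 26 of 30 genes were lowest in vector, against 18 of 30 by NanoString. How many of all 11640 genes were highest in each culture or lowest in vector was not counted. These counts are therefore not read as a trait of the panel. Among the 28 panel genes past the filter, 26 were higher than vector in each of the 3 other cultures, against 83.5% of all 11640 genes with Myc, 81.8% with MycN and 83% with Minimal Myc. A panel gene was counted as at least 2-fold higher on the log2(FPKM + 1) scale, which understates differences of low genes. In Myc 11 of 28 were, against 11.2% of all genes, in MycN 7 of 28 against 7.65%, and in Minimal Myc 5 of 28 against 13.6%. The panel's median log2 ratio was 0.89 with Myc, 0.75 with MycN and 0.69 with Minimal Myc, and that of all genes was 0.47 with Myc, 0.42 with MycN and 0.47 with Minimal Myc.

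**Figure D2:**
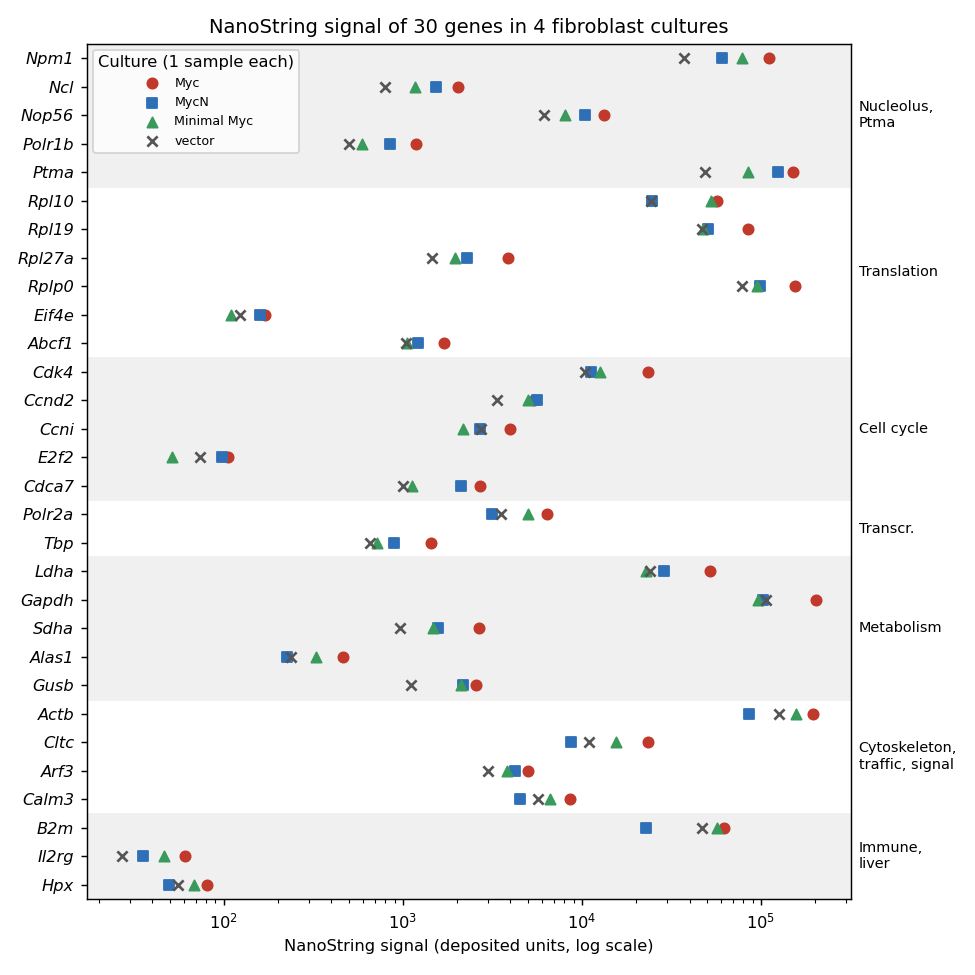
NanoString signal of each gene on a log axis, in the units of the deposited table, with 1 point per culture and the genes grouped by role from top to bottom. The Myc culture (circles) is the rightmost point for 29 of 30 genes, while MycN (squares) is left of vector (crosses) for 9 genes, among them Actb, Cltc, Calm3 and B2m.

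Genes of the nucleolus, where ribosomes are assembled, and Ptma were above vector in all 3 cultures by both assays. Npm1, a chaperone of the nucleolus that takes part in ribosome assembly, gave a signal of 111489 in Myc, 60655 in MycN, 78556 in Minimal Myc and 37173 in vector. Its FPKM were 1054 in Myc, 588 in MycN, 1187 in Minimal Myc and 345 in vector. Npm1 was 2.999 times vector by NanoString and 3.06 times by FPKM in Myc, 1.63 and 1.71 times in MycN, and 2.11 and 3.44 times in Minimal Myc. By NanoString Myc was thus the highest culture, and by FPKM Minimal Myc was. Ptma, which encodes the acidic nuclear protein prothymosin alpha, had a signal of 151092 in Myc, 125090 in MycN, 85174 in Minimal Myc and 49105 in vector. In FPKM it was level between Myc (1853) and MycN (1849), with 1384 in Minimal Myc and 554 in vector. Ptma was 3.08 times vector by NanoString and 3.34 times by FPKM in Myc, 2.55 and 3.33 times in MycN, and 1.73 and 2.50 times in Minimal Myc. Its NanoString ratios in Myc and in MycN were the highest on the panel.

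The remaining nucleolar genes shared 1 order by NanoString, with Myc above MycN, MycN above Minimal Myc, and vector lowest. Ncl, which encodes nucleolin, had a signal of 2049 in Myc, 1537 in MycN, 1166 in Minimal Myc and 799 in vector. In FPKM it stood at 221 in Myc, 153 in MycN, 163 in Minimal Myc and 59.9 in vector. Ncl was 2.57 times vector by NanoString and 3.69 times by FPKM in Myc, 1.92 and 2.55 times in MycN, and 1.46 and 2.73 times in Minimal Myc. The FPKM ratio was thus above the NanoString ratio in all 3. Nop56, a core protein of the particles that methylate ribosomal RNA, had a signal of 13301 in Myc, 10363 in MycN, 8078 in Minimal Myc and 6168 in vector. Nop56 was 2.16 times vector by NanoString and 2.27 times by FPKM in Myc, 1.68 and 2.29 times in MycN, and 1.31 and 1.81 times in Minimal Myc. Polr1b, the second largest subunit of RNA polymerase I, had 1183 in Myc, 852 in MycN, 591 in Minimal Myc and 504 in vector. In FPKM it was 24.96 in Myc, 17.6 in MycN, 13.8 in Minimal Myc and 8.87 in vector. Polr1b was 2.35 times vector by NanoString and 2.81 times by FPKM in Myc, 1.69 and 1.98 times in MycN, and 1.17 and 1.56 times in Minimal Myc. All 5 genes of this group were at least 2-fold higher by NanoString with Myc, 1 of 5 with MycN and 1 of 5 with Minimal Myc, beside 15 of all 30 panel genes with Myc, 2 with MycN and 2 with Minimal Myc. Ptma is no ribosome assembly factor and was placed here after its values were seen; the other 4 were all 2-fold higher with Myc, 0 with MycN and 1, Npm1, with Minimal Myc.

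**Figure D3:**
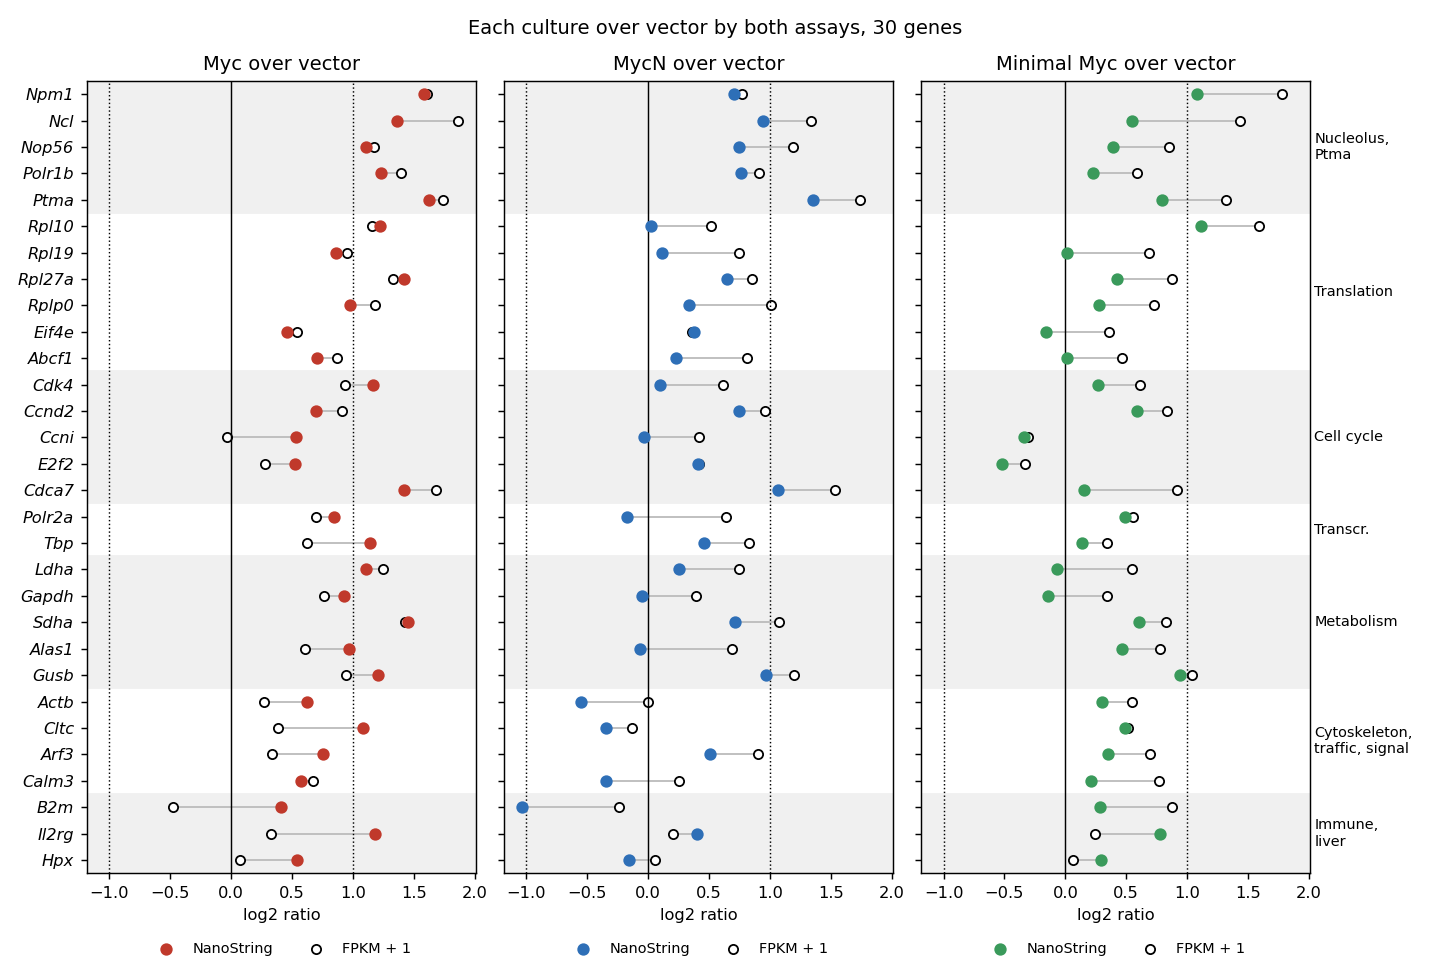
Log2 ratio of each culture over vector for 30 genes by NanoString (filled points) and on the log2(FPKM + 1) scale (open points), with dotted lines at 2-fold either way. In Myc the assays lie on either side of each other, with 17 genes higher by NanoString, whereas in MycN and Minimal Myc the NanoString point is left of the FPKM point for 28 of 30 genes each.

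Ribosomal protein genes split in Minimal Myc. Rpl10, a large subunit protein, had a NanoString signal of 56791 in Myc, 24724 in MycN, 52642 in Minimal Myc and 24354 in vector, and its FPKM were 1219.7 in Myc, 779 in MycN, 1640.2 in Minimal Myc and 545 in vector. Rpl10 was 2.33 times vector by NanoString and 2.24 times by FPKM in Myc, 1.02 and 1.43 times in MycN, and 2.16 and 3.01 times in Minimal Myc. Its NanoString ratio in Minimal Myc was the highest of the panel there, while MycN and vector were level by NanoString. Rpl19 had 85252 in Myc, 50619.9 in MycN, 47443 in Minimal Myc and 46894 in vector, so the Myc culture alone stood clear of vector. Rpl19 was 1.82 times vector by NanoString and 1.94 times by FPKM in Myc, 1.08 and 1.68 times in MycN, and 1.012 and 1.61 times in Minimal Myc. The stalk protein gene Rplp0 had 155127 in Myc, 99106 in MycN, 95291 in Minimal Myc and 78774 in vector. Rplp0 was 1.97 times vector by NanoString and 2.27 times by FPKM in Myc, 1.26 and 2.02 times in MycN, and 1.21 and 1.66 times in Minimal Myc. Rpl19 and Rplp0 were thus further above vector by FPKM than by NanoString in each culture. Rpl27a had a signal of 3890.5 in Myc, 2279 in MycN, 1956 in Minimal Myc and 1457 in vector, against FPKM of 777 in Myc, 557 in MycN, 567 in Minimal Myc and 308 in vector. Rpl27a was 2.67 times vector by NanoString and 2.52 times by FPKM in Myc, 1.56 and 1.81 times in MycN, and 1.34 and 1.84 times in Minimal Myc. By NanoString all 4 were highest in Myc and lowest in vector. These genes, Npm1, Ptma, Gapdh and Ldha have near-identical processed copies in the mouse genome, so their levels are uncertain by either assay. The copies are general knowledge, and neither reads nor probes were checked against them here.

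The translation factors on the panel differed less. Eif4e had a signal of 169.9 in Myc, 159.96 in MycN, 110.4 in Minimal Myc and 123 in vector. Its NanoString level in Minimal Myc was therefore below vector, while its FPKM of 75.5 with Myc, 66.5 with MycN and 66.4 with Minimal Myc were all above the 51.5 in vector. Eif4e was 1.38 times vector by NanoString and 1.47 times by FPKM in Myc, 1.296 and 1.29 times in MycN, and 0.895 and 1.29 times in Minimal Myc. Abcf1, an ABC-family protein of translation initiation, had 1696 in Myc, 1215 in MycN, 1050.3 in Minimal Myc and 1039 in vector. Abcf1 was 1.63 times vector by NanoString and 1.84 times by FPKM in Myc, 1.17 and 1.78 times in MycN, and 1.011 and 1.39 times in Minimal Myc. By NanoString Abcf1 was level with vector in Minimal Myc.

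Cell cycle genes were not alike. Cdca7, a nuclear protein of chromatin remodelling that responds to Myc, had a signal of 2688 in Myc, 2105 in MycN, 1122 in Minimal Myc and 1007 in vector. By FPKM it stood at 37.3 in Myc, 33.5 in MycN, 21.5 in Minimal Myc and 10.9 in vector. Cdca7 was 2.67 times vector by NanoString and 3.41 times by FPKM in Myc, 2.09 and 3.07 times in MycN, and 1.12 and 1.97 times in Minimal Myc. The assays differed most in Minimal Myc, where the NanoString signal was close to vector. Cdk4, a kinase of the exit from G1, had 23545 in Myc, 11234 in MycN, 12656 in Minimal Myc and 10488 in vector. Cdk4 was 2.25 times vector by NanoString and 1.91 times by FPKM in Myc, 1.07 and 1.53 times in MycN, and 1.21 and 1.53 times in Minimal Myc. By NanoString the Myc culture alone was far from vector.

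Ccnd2, which encodes cyclin D2, a partner of Cdk4, was the single gene whose NanoString signal was not highest in Myc. It had 5423 in Myc, 5632 in MycN, 5033 in Minimal Myc and 3351 in vector, and by FPKM 36.0 in Myc, 37.2 in MycN, 34.2 in Minimal Myc and 18.7 in vector. Ccnd2 was 1.62 times vector by NanoString and 1.93 times by FPKM in Myc, 1.68 and 1.99 times in MycN, and 1.502 and 1.83 times in Minimal Myc. All 3 Myc proteins thus went with a like level of Ccnd2 by both assays. Ccni, an atypical cyclin, had 3983 in Myc, 2692 in MycN, 2177 in Minimal Myc and 2750.3 in vector. Ccni was 1.45 times vector by NanoString and 0.976 times by FPKM in Myc, 0.979 and 1.35 times in MycN, and 0.791 and 0.803 times in Minimal Myc. E2f2, a transcription factor of S phase entry, had a signal of 105 in Myc, 97.3 in MycN, 51.2 in Minimal Myc and 73.3 in vector. E2f2 was 1.44 times vector by NanoString and 1.35 times by FPKM in Myc, 1.33 and 1.55 times in MycN, and 0.699 and 0.659 times in Minimal Myc. Both genes were below vector in Minimal Myc, with the 2 lowest NanoString ratios of the panel there. In FPKM both were lower there as well, Ccni at 34.04 in Minimal Myc against 42.4 in vector and E2f2 at 1.02 against 1.55. For the other cultures Ccni was 41.4 FPKM in Myc and 57.0 in MycN, and E2f2 was 2.10 in Myc and 2.41 in MycN. E2f2 had a signal below 200 in every culture and was not set against a background level, so its ratios are imprecise.

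The general transcription genes went apart in MycN. Polr2a, the largest subunit of RNA polymerase II, had a signal of 6405 in Myc, 3162 in MycN, 4989.6 in Minimal Myc and 3561 in vector. In FPKM it was 54.9 in Myc, 52.6 in MycN, 49.7 in Minimal Myc and 33.4 in vector. Polr2a was 1.798 times vector by NanoString and 1.64 times by FPKM in Myc, 0.888 and 1.57 times in MycN, and 1.40 and 1.49 times in Minimal Myc. In MycN it was thus below vector by NanoString and above it by FPKM, a gap of -0.81 on the log2 scale and the largest of the panel in that culture. Tbp, the TATA-box binding protein, had 1440.1 in Myc, 899 in MycN, 719 in Minimal Myc and 654 in vector. Tbp was 2.203 times vector by NanoString and 1.57 times by FPKM in Myc, 1.37 and 1.82 times in MycN, and 1.1001 and 1.29 times in Minimal Myc. Of the transcription genes, Tbp was thus the one above vector throughout.

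Among metabolic enzymes, Sdha, a subunit of succinate dehydrogenase, and Gusb, a lysosomal glucuronidase, were above vector in each culture. Sdha had a signal of 2651 in Myc, 1582 in MycN, 1474 in Minimal Myc and 968 in vector, with FPKM of 93.3 in Myc, 72.6 in MycN, 61.1 in Minimal Myc and 33.96 in vector. Sdha was 2.74 times vector by NanoString and 2.75 times by FPKM in Myc, 1.63 and 2.14 times in MycN, and 1.52 and 1.799 times in Minimal Myc. It was thus furthest from vector in Myc by both assays. Gusb had 2566 in Myc, 2165 in MycN, 2128 in Minimal Myc and 1111 in vector. By FPKM it was 37.2 in Myc, 44.4 in MycN, 39.8 in Minimal Myc and 18.8 in vector. Gusb was 2.31 times vector by NanoString and 1.98 times by FPKM in Myc, 1.95 and 2.36 times in MycN, and 1.92 and 2.12 times in Minimal Myc. Gusb was close to 2-fold above vector in all 3 cultures by both assays, although it is a common housekeeping control.

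The glycolytic genes were high in Myc and near vector elsewhere by NanoString. Gapdh had a signal of 204396 in Myc, 103513 in MycN, 97072 in Minimal Myc and 107307 in vector, and FPKM of 2114 in Myc, 1634 in MycN, 1572 in Minimal Myc and 1243 in vector. Gapdh was 1.90 times vector by NanoString and 1.70 times by FPKM in Myc, 0.965 and 1.31 times in MycN, and 0.905 and 1.26 times in Minimal Myc. Its NanoString signal was a little below vector in the cultures other than Myc. Ldha, which makes lactate, had a signal of 52026 in Myc, 28701 in MycN, 22956 in Minimal Myc and 24127 in vector, and FPKM of 1079 in Myc, 764 in MycN, 663 in Minimal Myc and 455 in vector. Ldha was 2.16 times vector by NanoString and 2.37 times by FPKM in Myc, 1.19 and 1.68 times in MycN, and 0.951 and 1.46 times in Minimal Myc. In Minimal Myc both were below vector by NanoString and above it by FPKM. Alas1, which starts heme synthesis, had a signal of 465 in Myc, 227 in MycN, 329 in Minimal Myc and 238 in vector. Its FPKM were 10.4 in Myc, 11.03 in MycN, 11.8 in Minimal Myc and 6.45 in vector. Alas1 was 1.96 times vector by NanoString and 1.61 times by FPKM in Myc, 0.954 and 1.71 times in MycN, and 1.38 and 1.82 times in Minimal Myc. Alas1 was thus below vector in MycN by NanoString and above it by FPKM.

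Genes of the cytoskeleton, membrane traffic and calcium signalling were above vector in Myc and in Minimal Myc, and 3 of 4 were below it in MycN by NanoString. Actb, a cytoskeletal actin, had a signal of 195335 in Myc, 86456 in MycN, 156399 in Minimal Myc and 126927 in vector. Its FPKM were 828 in Myc, 686 in MycN, 1004 in Minimal Myc and 686 in vector, so by FPKM MycN and vector were level. Actb was 1.54 times vector by NanoString and 1.21 times by FPKM in Myc, 0.681 and 1.001 times in MycN, and 1.23 and 1.46 times in Minimal Myc. Cltc had 23381 in Myc, 8655 in MycN, 15517 in Minimal Myc and 11034 in vector. In FPKM it was 68.4 in Myc, 47.6 in MycN, 74.9 in Minimal Myc and 52.3 in vector, so MycN was below vector by both assays. Cltc was 2.12 times vector by NanoString and 1.31 times by FPKM in Myc, 0.784 and 0.910 times in MycN, and 1.41 and 1.43 times in Minimal Myc. Calm3, a calmodulin gene, had a signal of 8549 in Myc, 4511 in MycN, 6615 in Minimal Myc and 5727 in vector, and by FPKM it was 113 in Myc, 84.1 in MycN, 121 in Minimal Myc and 70.5 in vector. Calm3 was 1.49 times vector by NanoString and 1.60 times by FPKM in Myc, 0.788 and 1.19 times in MycN, and 1.155 and 1.71 times in Minimal Myc. By FPKM Calm3 was above vector in all 3. Arf3, a small GTPase of the Golgi, had 5041 in Myc, 4249 in MycN, 3805 in Minimal Myc and 2983 in vector and was the member of this group above vector in MycN. Arf3 was 1.69 times vector by NanoString and 1.27 times by FPKM in Myc, 1.42 and 1.89 times in MycN, and 1.28 and 1.63 times in Minimal Myc.

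B2m, the light chain of MHC class I molecules, was the gene furthest below vector in MycN. It had a signal of 62438 in Myc, 22834 in MycN, 57149 in Minimal Myc and 46911 in vector. The MycN signal was less than that of any other culture. Its FPKM were 911 in Myc, 1073 in MycN, 2324 in Minimal Myc and 1269 in vector. B2m was 1.33 times vector by NanoString and 0.718 times by FPKM in Myc, 0.487 and 0.845 times in MycN, and 1.22 and 1.83 times in Minimal Myc. The assays thus lay on opposite sides of vector in Myc, a gap of 0.89 on the log2 scale.

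Il2rg, a cytokine receptor chain of lymphoid cells, and Hpx, a heme-binding protein made by liver, are best known from cells other than fibroblasts. Il2rg had a signal of 61.2 in Myc, 35.6 in MycN, 46.1 in Minimal Myc and 26.9 in vector, with FPKM of 0.374 in Myc, 0.258 in MycN, 0.295 in Minimal Myc and 0.0947 in vector. Il2rg was 2.27 times vector by NanoString and 3.95 times by FPKM in Myc, 1.32 and 2.72 times in MycN, and 1.71 and 3.12 times in Minimal Myc. Ratios of levels this low are imprecise. Hpx had a signal of 80.9 in Myc, 49.7 in MycN, 68.2 in Minimal Myc and 55.6 in vector, with FPKM of 0.630 in Myc, 0.611 in MycN, 0.616 in Minimal Myc and 0.546 in vector. Hpx was 1.46 times vector by NanoString and 1.155 times by FPKM in Myc, 0.895 and 1.12 times in MycN, and 1.23 and 1.13 times in Minimal Myc. Both are thus near the bottom of either scale, and no negative-control probe is used here to say whether these signals exceed background. Of 10 immune cell markers, 2 were at 1 FPKM or more in each culture, and their summed level was 11.1 FPKM in Myc, 11.1 in MycN, 14.4 in Minimal Myc and 10.3 in vector, with Ptprc, which marks blood cells, at 0 to 0.0215 FPKM. Their part in the Il2rg signal was not tested.

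The E-box letters CACGTG, the sequence that Myc and Max are known to bind, were looked for in the promoter windows of the panel. RefSeq windows of 300 bases on the later build GRCm38.p6, which run from 250 bases before a start site to 50 after it, were found for 27 of 30 genes by symbol. CACGTG reads the same on both strands. It was in the windows of 5 of 27 genes (18.5%), Abcf1, Cdk4, Eif4e, Ldha and Rpl19, and in 8.09% of 27025 genes with such windows. Panel windows had a median of 59.3% G and C and all windows 52.7%, and no account was taken of this. The 3 genes with more than 1 match in a window are given here with the match in capitals, 5' to 3' on the strand of the gene. Positions are those of the first base of the match, counted from the start site.
Cdk4 (chr10:127063285-127063584, + strand): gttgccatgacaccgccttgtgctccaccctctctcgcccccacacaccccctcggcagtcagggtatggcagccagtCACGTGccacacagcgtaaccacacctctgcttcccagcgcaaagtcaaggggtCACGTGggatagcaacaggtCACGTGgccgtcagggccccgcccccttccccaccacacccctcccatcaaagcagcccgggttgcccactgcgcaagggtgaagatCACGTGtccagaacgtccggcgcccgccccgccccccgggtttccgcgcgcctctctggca
Ldha (chr7:46845554-46845853, + strand): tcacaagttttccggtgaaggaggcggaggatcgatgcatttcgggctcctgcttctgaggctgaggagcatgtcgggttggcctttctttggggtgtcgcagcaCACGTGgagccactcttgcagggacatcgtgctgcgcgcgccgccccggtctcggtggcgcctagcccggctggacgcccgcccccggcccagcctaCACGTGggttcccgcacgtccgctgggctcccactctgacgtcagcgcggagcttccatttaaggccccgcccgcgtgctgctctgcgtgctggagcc
Eif4e (chr3:138527018-138527317, + strand): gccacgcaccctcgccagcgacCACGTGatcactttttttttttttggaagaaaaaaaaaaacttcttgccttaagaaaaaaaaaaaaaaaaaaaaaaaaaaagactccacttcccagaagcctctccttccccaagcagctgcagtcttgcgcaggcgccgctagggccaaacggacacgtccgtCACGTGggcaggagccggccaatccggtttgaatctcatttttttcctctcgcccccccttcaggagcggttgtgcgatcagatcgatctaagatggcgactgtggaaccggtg

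The Cdk4 window holds 4 matches, at -172, -118, -98 and -11, the Ldha window holds 2, at -145 and -48, and the Eif4e window holds 2, at -228 and -64. Ldha and Eif4e each have another window with no match. By NanoString Cdk4 stood at 2.25, Ldha at 2.16 and Eif4e at 1.38 times vector in Myc. The 5 genes with a match ran from 1.38 to 2.25 times vector in Myc and the 22 without one from 1.33 to 3.08, so their ranges overlapped. A match is a string of letters in these windows and not a measured binding site, and Ptma, with the highest ratio, has none in its window.

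Comparisons between the Myc proteins do not use the vector sample, and they share samples with one another. The MycN culture was above Myc for 1 of 30 genes by NanoString (3.33%), Ccnd2 at 1.04 times, with a median ratio of 0.606. It was at least 2-fold lower for 7 genes (23.3%), which were B2m (0.366), Cltc (0.370), Rpl10 (0.435), Actb (0.443), Cdk4 (0.477), Alas1 (0.487) and Polr2a (0.494). By FPKM 9 of 28 genes past the filter were higher in MycN than in Myc, against 43.6% of all genes, and 0 of 28 were at least 2-fold lower, against 2.74%. Log2 ratios by the assays had a Pearson correlation of 0.382 over 30 genes in this comparison, and 0.513 without B2m, which was 0.366 times Myc by NanoString and 1.18 times by FPKM.

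Minimal Myc was above Myc for 0 of 30 genes by NanoString (0%), with a median ratio of 0.617. It was at least 2-fold lower for 6 (20%), which were Cdca7 (0.418), Ldha (0.441), Gapdh (0.475), E2f2 (0.487), Tbp (0.499) and Polr1b (0.4998). Of these, E2f2 rests on signals below 200. Gapdh, at 0.506 times Myc in the MycN culture, and Cdk4, at 0.538 times Myc in Minimal Myc, lay just outside the line in the other comparison. By FPKM 9 of 28 genes were higher in Minimal Myc than in Myc, against 47.3% of all genes. B2m alone was at least 2-fold higher, at 2.55 times, against 4.48% of all genes, and 0 of 28 were at least 2-fold lower, against 2.16%.

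Against MycN, Minimal Myc was higher for 11 of 30 genes by NanoString (36.7%), with a median ratio of 0.934. B2m at 2.50 and Rpl10 at 2.13 were at least 2-fold higher (6.67%), while E2f2 at 0.526, on signals below 200, and Cdca7 at 0.533 were the lowest. By FPKM B2m, Rpl10 and Npm1 were at least 2-fold higher, 3 of 28 against 6.94% of all genes, and 9 of 28 were higher by any amount, against 53.3%. The median gap between the assays was 0.04 (log2), the smallest of the 6 comparisons, and 20 of 30 genes had a gap under 0.25 either way.

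**Figure D4:**
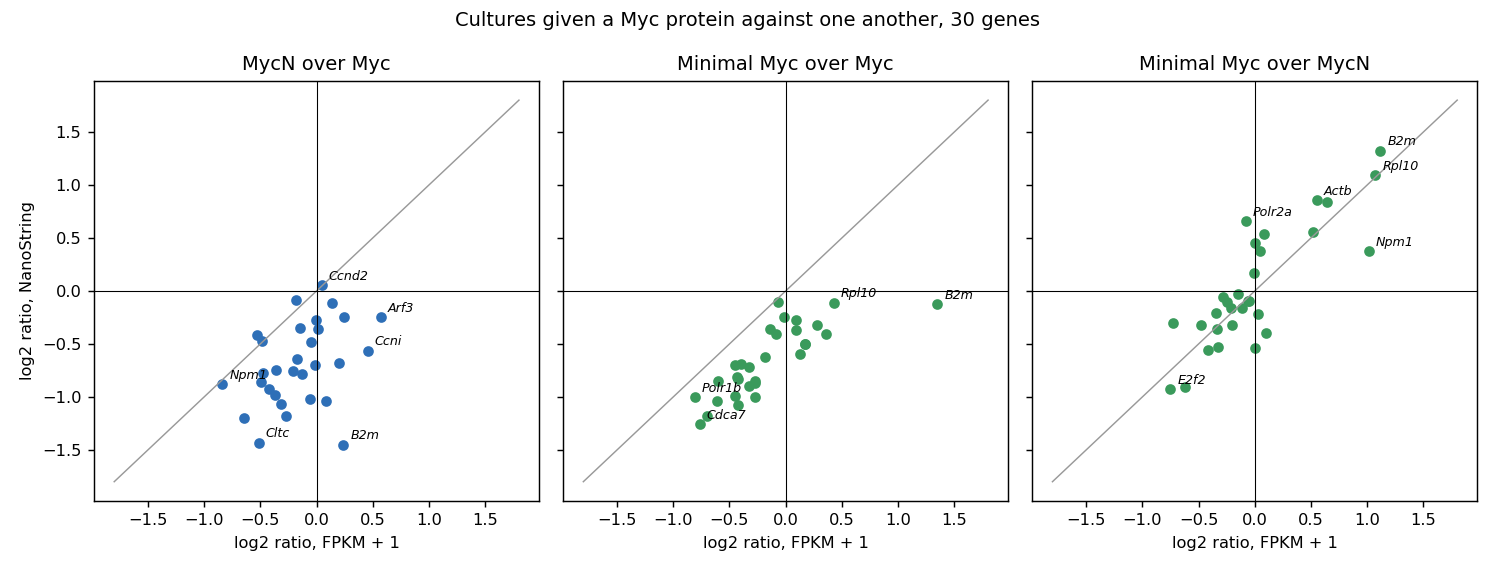
Log2 ratios of 30 genes between the cultures given a Myc protein, with FPKM + 1 on the horizontal axis and NanoString on the vertical axis, and a grey line where both would be equal. In MycN over Myc and Minimal Myc over Myc nearly all points lie below the line, while in Minimal Myc over MycN they lie on both sides, with B2m and Rpl10 high by both assays.

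Gaps between the assays were taken gene by gene against vector, as the NanoString log2 ratio minus the log2(FPKM + 1) ratio. Their median was 0.07 with Myc, -0.42 with MycN and -0.40 with Minimal Myc. With FPKM centred on the median of all genes these medians were 0.55 with Myc, 0.0029 with MycN and 0.070 with Minimal Myc, so the gap in MycN and Minimal Myc depends on the scaling. The direction against vector differed between the assays for 2 genes in Myc, B2m and Ccni. It differed for 7 genes in MycN, which were Actb, Calm3, Ccni, Polr2a, Alas1, Gapdh and Hpx, and for 3 in Minimal Myc, Eif4e, Gapdh and Ldha. In MycN and Minimal Myc each of these was lower than vector by NanoString and higher by FPKM. The gap was 0.5 or more either way for 6 genes with Myc, 9 with MycN and 10 with Minimal Myc. The constant added to FPKM shapes the gap of low genes. Il2rg counts as higher by NanoString in Myc and Minimal Myc. Without the constant its FPKM ratio was the higher one, 3.95 against 2.27 in Myc and 3.12 against 1.71 in Minimal Myc.

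The authors' second table multiplies each library by 1 factor, and this factor equals the mean over the 32 NanoString entries of the ratio to vector. It is 2.04 in the Myc library, 1.3004 in that of MycN and 1.28 in that of Minimal Myc. Other summaries of the same 30 genes gave nearly the same figure for Myc and a wider range for MycN. The geometric mean of the ratios was 1.99 with Myc, 1.23 with MycN and 1.26 with Minimal Myc, and the ratio of the summed signals was 1.99 with Myc, 1.12 with MycN and 1.28 with Minimal Myc. The NanoString entries were multiplied too, so that in the second table their median ratio to vector is 4.17 with Myc, 1.66 with MycN and 1.58 with Minimal Myc.

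Of the 30 genes, 12 stand in a list of common housekeeping genes. Their geometric mean ratio to vector was 1.96 with Myc, 1.03 with MycN and 1.24 with Minimal Myc, but single members ran from 1.33 to 2.74 in Myc, from 0.487 to 1.95 in MycN and from 0.905 to 1.92 in Minimal Myc. Relative to that mean, 2 panel genes stood at least 1.5-fold higher in Myc, Ptma at 1.57 and Npm1 at 1.53, and 0 at least 1.5-fold lower. In MycN 10 were higher, led by Ptma (2.46), Cdca7 (2.02), Gusb (1.88) and Ncl (1.86), and B2m (0.470) and Actb (0.658) were lower. In Minimal Myc Rpl10 (1.74), Npm1 (1.70) and Gusb (1.54) were higher, and E2f2 (0.562, on signals below 200) and Ccni (0.636) were lower. The nucleolar genes and Ptma were above the housekeeping mean in Myc and MycN in 5 of 5 cases each. In Minimal Myc 4 of 5 were, with Polr1b at 0.943. These counts include Ptma, which was placed in the group after its values were seen. Over the whole panel 17 of 30 genes were above that mean with Myc, 20 with MycN and 14 with Minimal Myc. These 30 include the 12 genes that form the mean, which centre on it by construction, so the 2 sets of counts are not alike.

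The genes that share these roles but are not on the panel were read by FPKM alone. Outside the panel, 33 of 40 ribosome biogenesis genes stood at least 2-fold above vector with Myc, 12 with MycN and 17 with Minimal Myc, with median log2 ratios of 1.36 with Myc, 0.73 with MycN and 0.93 with Minimal Myc. Of 59 other Myc target genes, 29 were so with Myc, 10 with MycN and 22 with Minimal Myc. Of 36 other cell cycle and replication genes, 7 were so with Myc, 3 with MycN and 6 with Minimal Myc. The 14 other housekeeping genes past the filter had 3 with Myc, 1 with MycN and 8 with Minimal Myc, with median log2 ratios of 0.83 with Myc, 0.39 with MycN and 1.02 with Minimal Myc. No gene of these 4 lists was at least 2-fold lower than vector in any of the 3 cultures. The shares of all genes were 1.56% with Myc, 1.86% with MycN and 1.68% with Minimal Myc. At shares this small, a count of 0 is not read as a trait of the lists. Of 17 other glycolysis genes, 4 were at least 2-fold higher with Myc, 1 with MycN and 1 with Minimal Myc. In that list 1 gene was at least 2-fold lower with MycN. The shares of all genes at least 2-fold higher, given above, are the background of these counts.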

How the data were processed

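The authors deposited 2 tables with FPKM and, in 32 entries, a NanoString signal in the same columns; the signal has decimals and is therefore normalized, in a way not given in the sources used here. The build mm9 and the tools Cufflinks 2.2.0 and TopHat2 2.0.11 stand in the submitters' processing notes, which give them no role. FPKM and this signal carry no depth, so no counting interval is given.

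NanoString ratios are of the deposited signal with no constant added. Where a gene had several FPKM entries, equal ones were merged and different ones summed. Genes averaging 1 FPKM or more, without small RNA genes, were kept (11640), and ratios for counts are of log2(FPKM + 1). Single FPKM ratios in the text have no constant added. With 1 sample per culture no test was run. The 2-fold FPKM calls were tried on simulated data, with known changes placed in abundant genes only. The NanoString median ratio was run on the vector signal times a set factor, which checks the code alone. The assay gap and the division by housekeeping genes were not simulated. Calculations used Python 3.11.15, pandas 2.3.3 and NumPy 2.4.6. Figures used Matplotlib 3.10.9.

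The members, the gene lists and the rule for named genes were chosen with earlier results of these data known. By that rule every panel gene is named with its signal, and FPKM per culture for those with the 5 highest or lowest NanoString ratios or the 3 largest assay gaps either way against vector; the FPKM ratios of the other panel genes were added after values were seen, as were roles, the E-box search and the 1.5-fold counts. Lists outside the panel that are described were picked from 19. No column was left out.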

Additional observations from a re-analysis of the deposited data

How the results depend on the processing

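No paired analysis was possible because each culture has 1 sample. Leaving out a replicate was not possible for the same reason. Counting repeated entries apart or taking the highest FPKM entry of a gene changed no count or assay gap, except that 16 genes rather than 15 were at least 2-fold higher in Myc; the median ratio became 0.29 (log2) in MycN and 0.29 in Minimal Myc, from 0.35 and 0.30.

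Dividing by the 12 housekeeping genes left 0 genes at least 2-fold higher than vector with Myc, 2 with MycN and 0 with Minimal Myc, and 1 in Minimal Myc against MycN. The median log2 ratio to vector became 0.063 with Myc, 0.30 with MycN and -0.018 with Minimal Myc, the last with its sign reversed. This divisor is itself 1.96, 1.03 and 1.24 times vector. A threshold of 1.5-fold, chosen after seeing the data, gave 24 genes in Myc, 10 in MycN, 7 in Minimal Myc, and 5 in Minimal Myc against MycN. With 100 added to the signal 14 genes were at least 2-fold higher in Myc and 1 in MycN. The medians were then 0.95 with Myc, 0.21 with MycN and 0.28 with Minimal Myc. With genes of a mean signal of at least 1000 they were 1.08 with Myc, 0.25 with MycN and 0.35 with Minimal Myc.

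The median assay gap in Myc is near 0 and its sign depends on the choice; the cause was not tested. It was 0.029 with 0.1 FPKM added, 0.23 with 10 and -0.0014 over genes of at least 10 FPKM. With FPKM of the scaled table set against unscaled NanoString signal it was -0.95. That setting puts the library factor on the FPKM side alone, so its gap is not one within the scaled table. With FPKM centred on all genes the gap was 0.55, and without the 8 genes with near-identical copies (added after seeing the data) 0.24. In MycN the gap was, in the same order, -0.45, -0.32, -0.44, -0.79, 0.0029 and -0.39. In Minimal Myc it was -0.43, -0.39, -0.45, -0.75, 0.070 and -0.28. The gap in MycN and Minimal Myc thus kept its sign except under centring, which subtracts the median of all genes by construction. Depth is unknown, and signals below 200 (Il2rg, Hpx, E2f2, Eif4e) limit what their ratios show.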
